A study of Mus musculus with 12 samples.

Results

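Cytosolic ribosomal proteins are the protein subunits of the ribosomes that translate nuclear-encoded messages, and their transcripts were described here in quadriceps of exercised and sedentary mice. The members are the gene probes of the array whose name begins with Rpl or Rps followed by a digit, the letter p or the letter a, without the Rps6k kinases, which gave 137 of 41174 gene probes and 84 gene names. Membership rests on names and not on measured values, but the members were chosen with earlier results of these data known. All mice were C57BL/6J males of 13 weeks. The 6 exercised mice had run on a motorised treadmill for 4 weeks and gave their muscle 3 hours after the final session, and the 6 sedentary mice were not trained. Total RNA of each mouse was labelled with Cy3 and hybridised to its own one-colour Agilent array. Trained mice were sampled only after a session, so the 4 weeks and the last session cannot be told apart.

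A probe was kept if 6 or more of the 12 arrays showed it well above background, which held for 132 of the 137 member probes and for 22916 of all gene probes. The kept probes cover all 84 names: 51 names of the large subunit with 79 probes, 32 of the small subunit with 51 probes, and Rps19bp1 with 2 probes. Rps19bp1 encodes a protein that binds Rps19 and is not itself a ribosomal protein, so it met the naming rule only. The 5 probes not kept were 1 each of Rps2, Rpl37, Rpl39l, Rps6 and Rps18, and each was above background on at most 1 array. Rpl10l and Rps4y2 were not found under these names on the array. Levels are log2 signals relative to the 75th percentile of the same array, and differences are exercised minus sedentary.

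Each ribosome holds 1 small subunit, which reads the message, and 1 large subunit, which joins the amino acids. Most ribosomal proteins are present in a single copy per ribosome and their genes are expressed together in nearly every cell. Their messages begin with a C followed by a run of pyrimidines, the 5′ terminal oligopyrimidine (TOP) motif, through which mTORC1 and the RNA-binding protein Larp1 control their translation. That control acts on how much of a message is translated, which an array of total RNA does not measure. In skeletal muscle, synthesis of new ribosomes is one of the responses studied after exercise.

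The sequences of the probes show what was hybridised. The probes of Rpl3 and of its muscle paralogue Rpl3l are shown because the 2 transcripts are compared below, and the longest run of bases they share is 5. They lie at chr15:79910252-79910826 on the minus strand for Rpl3 and at chr17:24872413-24872681 on the plus strand for Rpl3l, on build mm9 as given by the array annotation. Both positions are longer than the 60-base probes, so each probe crosses at least 1 exon junction. They read 5′ to 3′:
Rpl3: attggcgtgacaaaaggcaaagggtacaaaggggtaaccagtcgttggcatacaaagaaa
Rpl3l: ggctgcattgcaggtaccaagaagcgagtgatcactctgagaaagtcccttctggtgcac

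Rpl29 is shown because it has 4 probes, more than any other member, and because its probe at the 5′ end had the smallest p among the members. Rpl29 encodes a small basic protein of the large subunit. The probes lie on the plus strand of chromosome 9 (mm9) at chr9:106331969-106332651 for A_51_P400137, chr9:106332644-106332703 for A_52_P326158, chr9:106333409-106333468 for A_52_P505977 and chr9:106333436-106333495 for A_52_P217069. A_52_P505977 and A_52_P217069 overlap over 33 bases, with a shared run of 20 bases and 3 mismatches:
A_51_P400137: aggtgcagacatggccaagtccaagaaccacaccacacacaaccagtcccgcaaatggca
A_52_P326158: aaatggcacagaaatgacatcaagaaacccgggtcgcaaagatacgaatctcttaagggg
A_52_P505977: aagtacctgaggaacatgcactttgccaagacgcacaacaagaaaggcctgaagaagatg
A_52_P217069: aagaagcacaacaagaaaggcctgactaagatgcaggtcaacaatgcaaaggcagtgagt

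The arrays were alike in overall quality. Between 22414 and 24858 probes were above background on exercised arrays, and between 21707 and 25229 on sedentary arrays. The 75th percentile of the signal lay between 179 and 230 units of intensity on exercised arrays, and between 167 and 237 on sedentary arrays. All 12 fast-fibre muscle markers, such as Ckm and Myh4, were above background on every array, and the labelled tissue is muscle. The 12 arrays lay on 3 slides. Slide 1 held 1 exercised and 3 sedentary arrays, slide 2 held 3 and 1, and slide 3 held 2 and 2. The sample titles give each array a set and an animal number, and the series' design text gives 6 mice per treatment. Summed levels of the 11 tendon markers were between 66.2 and 170 on exercised arrays, and between 29.2 and 86.7 on sedentary arrays, as linear signals over the 75th percentile. The defining tendon genes were present in both groups, and 9 of the 10 measured ones had an unadjusted p below 0.05. Among the markers of other cell types, 3 of 7 satellite cell, 2 of 7 smooth muscle or pericyte and 1 of 6 brown adipocyte genes rose, 2 of 8 endothelial genes fell, and 0 were called in the remaining lists. The part of these cells in the results that follow was not tested.

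No ribosomal protein transcript passed the test for a difference between exercised and sedentary muscle. Of 132 member probes, 0 rose and 0 fell at an adjusted p below 0.05 in limma with Benjamini-Hochberg adjustment over all 22916 probes, of which 3.32% were called (1.81% higher and 1.51% lower). At an unadjusted p below 0.05 there were 5 member probes (3.79%), against 15.7% of all probes. Of these, 2 were higher, against 6.79% of all probes, and 3 were lower, against 8.89%. The groups of arrays overlapped for every member probe, while among all probes 1.46% had every exercised array above every sedentary one and 1.43% had every exercised array below. With 1 probe per gene name, that with the highest mean level, 0 of 84 members and 602 of 16419 genes were called by limma, and 3 members had an unadjusted p below 0.05. A change in the muscle's cell types and a change per cell cannot be told apart in these tissue samples.

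The intervals bound how large a difference could have gone uncalled. The 95% interval of the difference lay within a 1.2-fold change in either direction for 63 of the 132 member probes (47.7%), against 27.3% of all probes. It lay within 1.5-fold for 125 members (94.7%, against 77.2%) and within 2-fold for 130 (98.5%, against 93.5%). The probes outside 2-fold were Rpl21 A_52_P258959 and Rps4x A_52_P780667, named here after their values were seen. Their intervals ran from 0.473-fold to 2.17-fold and from 1.01-fold to 3.02-fold. The levels of the Rps4x probe followed the slide, as given below, and this fit did not use slide as a block. The members were measured tightly: the median SD between arrays within a group was 0.144 on the log2 scale, against 0.188 over all probes. Their signal was also strong, with a median level of 5.71 against -0.43 over all probes, and none was saturated on any array.

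**Figure D1:**
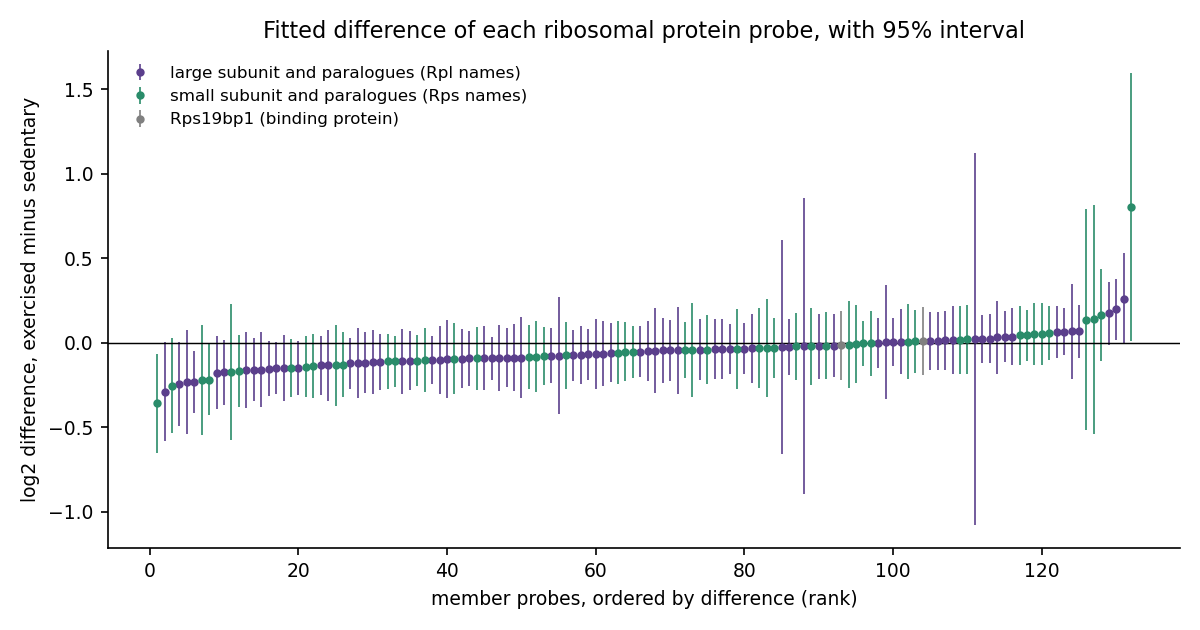
Fitted log2 difference (exercised minus sedentary, vertical axis) of the 132 kept member probes in order of size (horizontal axis), with bars for the 95% interval of the limma fit (6 mice in each group). Nearly all points lie between -0.36 and 0.26, and the highest, at 0.80, is the Rps4x probe A_52_P780667.

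The member probes lay slightly below 0 as a set, by an amount that rested on single arrays. The median log2 difference was -0.05 over the members (-0.07 over the large and -0.04 over the small subunit), against -0.02 over all probes. Of 132 members, 97 had a difference below 0 (73.5%), as did 55.7% of all probes. Without the sedentary mouse s2m2 (animal 2 of the set that the titles number 2), 76 members were below 0 (57.6%), against 54.9% of all probes, and the members' median was -0.02, as was that of all probes. Without the exercised mouse s2m4, 79 members were below 0 (59.8%, against 54.1%), with a median of -0.03. Without the sedentary mouse s1m5, and likewise without the exercised mouse s1m5, the median was -0.08. With the normexp background correction the members' median was 0.22, the opposite direction, and with plain subtraction of the local background it was -0.02. Normexp left the median probe at 745 to 2289 units of intensity on exercised s2m1 and s2m4 and sedentary s2m4 and s2m5. The other arrays had 74.3 to 84.7, so the normexp value carries this unequal correction. The members' median was -0.12 within slide 1, 0.02 within slide 2 and 0.04 within slide 3, so its sign differed between slides, and it was -0.01 with slide as a block. For comparison, the 113 probes of mitochondrial ribosomal proteins, which are made by a separate set of nuclear genes, had a median of -0.01, and the 67 proteasome probes had one of -0.01.

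The transcripts of large and small subunit deviated alike from mouse to mouse, and the deviations of the most extreme mice were larger than the difference between groups. Each array was given a score, the average over 130 member probes with values on every array of the distance from the probe's own mean over the 12 arrays. In exercised mice the score was 0.04 in s1m1, 0.06 in s1m5, 0.04 in s2m1, -0.09 in s2m3, -0.16 in s2m4 and -0.04 in s2m5. In sedentary mice it was -0.02 in s1m1, -0.06 in s1m5, 0.04 in s1m6, 0.20 in s2m2, 0.02 in s2m4 and -0.03 in s2m5. The lowest array was thus an exercised one and the highest a sedentary one, while the other 10 overlapped between groups. The means were -0.02 ± 0.09 in exercised and 0.02 ± 0.09 in sedentary mice (SD, n = 6 each). In s2m4 of the exercised group only 11 of the 130 probes were above their own mean, against 117 of 130 in s2m2 of the sedentary group. The large and small subunit scores of s2m4 were both -0.16, and those of s2m2 were both 0.21. The points of such a comparison share the array and its scaling, and no test was made of it.

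**Figure D2:**
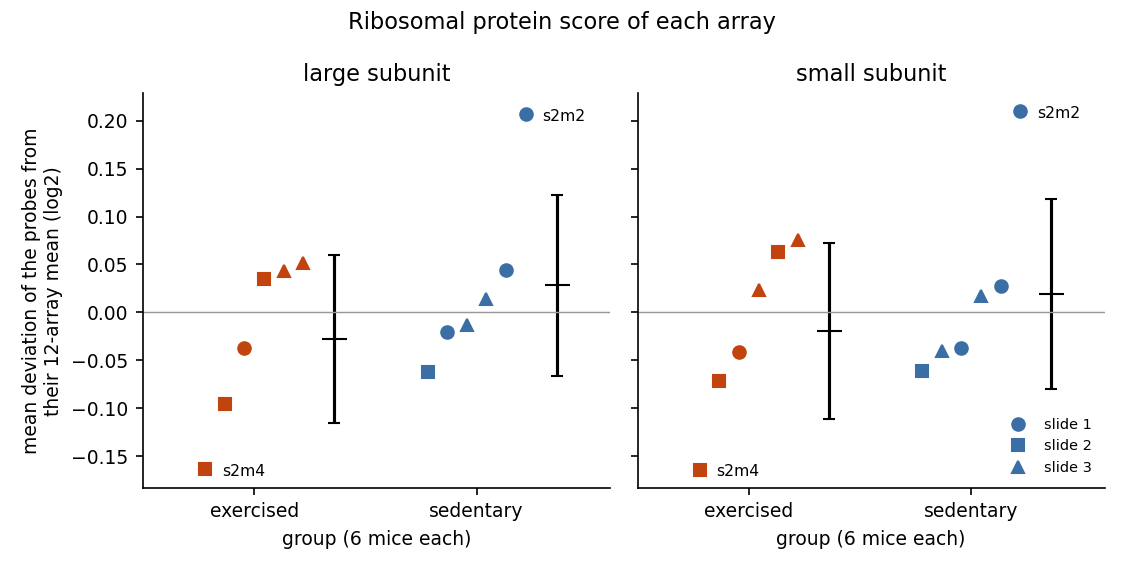
Mean deviation of the large subunit probes (left panel) and small subunit probes (right panel) from their 12-array means, in log2 units on the vertical axis, for 6 exercised and 6 sedentary mice, with symbols for the slide and bars for mean and SD; the lowest and the highest array are named. The exercised mouse s2m4 is lowest at -0.16 and the sedentary mouse s2m2 highest at 0.21 in both panels.

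The titles place the mice in 2 numbered sets of unstated meaning, with 2 exercised and 3 sedentary mice in set 1 and 4 and 3 in set 2. The median difference of the member probes was -0.15 in set 2 and 0.08 in set 1, against -0.04 and 0.02 over all probes. The exercised mice of set 1 were all on slide 3 and those of set 2 on slides 1 and 2. Set and slide therefore cannot be told apart among exercised mice. In set 2, 120 of 132 members were below 0, as were 13346 of all 22916 probes, and in set 1, 99 members and 12170 of all probes were above 0. Both arrays with the extreme scores are in set 2. The difference between sets passed for 0 members and 0 probes in all at an adjusted p below 0.05 (0% called), by the interaction term in limma, with a smallest adjusted p of 0.567 among the members. At an unadjusted p below 0.05 in either direction there were 16 members (12.1%), against 8.43% of all probes. All 16 were lower in set 2, and the share of all probes in that direction alone was not counted. Rps15 had the smallest p of these, with a difference of -0.53 in set 2 and 0.16 in set 1.

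Among proteins of the large subunit, those of the stalk gave no call. Rplp0, Rplp1 and Rplp2 form the stalk to which translation factors bind. Rplp0 had a lowest, median and highest level of 9.05, 9.24 and 9.45 in exercised mice, and 9.15, 9.23 and 9.40 in sedentary mice. The ranges nearly coincided, and the fold was 1.01 (95% interval 0.895 to 1.13, adjusted p = 0.971 in limma). Rplp1 differed by -0.09 and Rplp2 by -0.04 on the log2 scale, with adjusted p of 0.779 and 0.874 in limma. Rplp0 is often used to normalise PCR, as are Rpl13a, Rpl32 and Rps18. Rpl13a differed by 0.04 and Rpl32 by -0.15, and Rps18 by -0.09 in its brighter kept probe and by 0.05 in its dimmer one (limma adjusted p from 0.479 to 0.879).

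Rpl5 and Rpl11 belong to the 5S particle of the large subunit, which outside the ribosome binds Mdm2 and so links ribosome assembly to p53. Rpl5 was between 7.45 and 7.73 in exercised mice with a median of 7.59, and between 7.46 and 7.82 in sedentary mice with a median of 7.69. The groups overlapped, and the difference was -0.11 ± 0.08 (SE, limma adjusted p = 0.541). The brighter Rpl11 probe differed by -0.09 and a dimmer one, of a cDNA clone, by -0.24 (limma adjusted p = 0.699 and 0.335). The longest run of bases these 2 probes share is 5. Rpl10, which joins late in assembly at the tRNA sites, differed by -0.15, Rpl10a by -0.02, Rpl7 by -0.03, Rpl26 by -0.07 and Rpl38 by -0.05. None of them passed. Rpl13, another protein of the large subunit, was among the 5 lowest with -0.23 in the dimmer of its probes and -0.12 in the brighter.

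Rpl29 was the member with the smallest unadjusted p, in the first of the probes printed above. That probe had a lowest, median and highest level of 4.09, 4.32 and 4.47 in exercised mice, and 4.32, 4.55 and 4.67 in sedentary mice. The exercised median equalled the sedentary minimum to 2 decimals, and the ranges overlapped. The fold was 0.850 (0.749 to 0.966), with an unadjusted p of 0.0168 and an adjusted p of 0.182 in limma. The other 3 probes of Rpl29 differed by -0.11, -0.16 and -0.15. All 4 are below 0 over the 12 arrays, but they measure the same RNA samples and are not replicates. Within slides the first probe differed by -0.18, -0.14 and -0.17 on slides 1, 2 and 3, while A_52_P326158 and A_52_P505977 were above 0 on slide 2, at 0.03 and 0.05.

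Proteins of the small subunit gave no call either. Rps6, the substrate of the S6 kinases downstream of mTORC1, had a lowest, median and highest level of 4.96, 5.05 and 5.20 in exercised mice, and 5.01, 5.08 and 5.18 in sedentary mice. Its groups nearly coincided, with a fold of 0.997 (0.908 to 1.1, limma adjusted p = 0.985). Rpsa, which was first described as a laminin receptor, differed by -0.09, and Rps3, which lines the entry of the message channel, by -0.02. Rps19, mutated in human Diamond-Blackfan anaemia, differed by -0.01, and Rps25, needed by some viral internal ribosome entry sites, by -0.14. Rps27a, which is made as a fusion with ubiquitin, differed by -0.03. The limma adjusted p of these 5 ran from 0.519 to 0.980. Rps19bp1, the binding protein counted by its name, differed by -0.01 in its brighter probe.

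Rps26, a protein near the exit of the message channel, had a level between 5.04 and 5.49 with a median of 5.34 in exercised mice, and between 5.23 and 5.77 with a median of 5.54 in sedentary mice. Exercised mice lay lower on average with much overlap. The fold was 0.859 (0.743 to 0.994), with an unadjusted p of 0.0425 and an adjusted p of 0.295 in limma. Rps15, from the head of the small subunit, was between 3.25 and 3.85 in exercised and between 3.45 and 4.14 in sedentary mice, with a difference of -0.25 ± 0.13 (SE, limma adjusted p = 0.382). It was among the 5 lowest members.

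Several probes at the ends of the range came from sequences other than the reference messages. The lowest was Rps28 A_52_P682465, of a cDNA clone, with -0.36 ± 0.14 (SE, unadjusted p = 0.0210, adjusted p = 0.204 in limma). Its lowest, median and highest level was -2.90, -2.45 and -2.19 in exercised mice, and -2.27, -2.23 and -1.90 in sedentary mice. It lies at chr17:33960065-33960124 (mm9, minus strand), wholly inside the interval from 33960041 to 33960180 over which the RefSeq probe A_51_P335671 of Rps28 is placed. The longest run of bases these 2 probes share is 6, so they read largely different parts of that interval. Which RNA the clone probe measures was not tested. Probe A_51_P335671 differed by 0.04 and the other RefSeq probe by -0.08. Rps28 is a small protein of the small subunit.

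The second lowest was Rpl30 A_52_P543471, of an expressed sequence tag, with -0.29, whereas the RefSeq probe of Rpl30, a protein of the large subunit, differed by -0.03. The highest was Rps4x A_52_P780667, of an expressed sequence tag with no genome position in the annotation. Its lowest, median and highest level was -2.09, -0.98 and -0.38 in exercised mice, and -2.49, -2.12 and -0.60 in sedentary mice. The groups overlapped, and the difference was 0.80 ± 0.37 (SE, unadjusted p = 0.0477, adjusted p = 0.311 in limma). Its levels followed the slide: all arrays of slide 2 lay between -0.60 and -0.38, and all others between -2.49 and -1.41. Slide 2 held more exercised than sedentary arrays. With slide as a block the difference was 0.24 (limma adjusted p = 0.197), and within slides 1, 2 and 3 it was 0.27, 0.14 and 0.30. The RefSeq probe of Rps4x, the X-linked copy of a small subunit protein, differed by -0.04. The fifth highest of the probes above background on all arrays, Rps21 A_52_P740562, varied widely, from 3.25 to 4.67 in exercised and from 2.73 to 4.29 in sedentary mice, and differed by 0.14. It shares a run of at least 30 bases with a probe of another name. Such sharing held for 6 member probes, and ribosomal protein genes have many processed copies, so signal of a member can include RNA of near-identical sequence. A probe of Rps27 and a probe of Rps29 are placed on another chromosome than the RefSeq record of their gene. The 119 probes with a RefSeq mRNA accession had a median difference of -0.05, and the 13 others had one of -0.11.

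Probes of the same gene could be compared with each other. Of 38 ribosomal protein names with at least 2 kept probes (Rps19bp1 was left out), 19 had probes within 0.1 of each other on the log2 scale, the median range was 0.10, and 25 had all probes on the same side of 0. The range was over 0.25 for 4 names, Rps4x (0.84), Rps28 (0.40), Rps25 (0.30) and Rpl30 (0.26). The slide dependence of the Rps4x probe and the different stretches read by the Rps28 probes are given above. The dimmer probe of Rps25 was above background on all 6 exercised and on 5 of 6 sedentary arrays. The same mice gave the values of all probes of a gene.

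**Figure D3:**
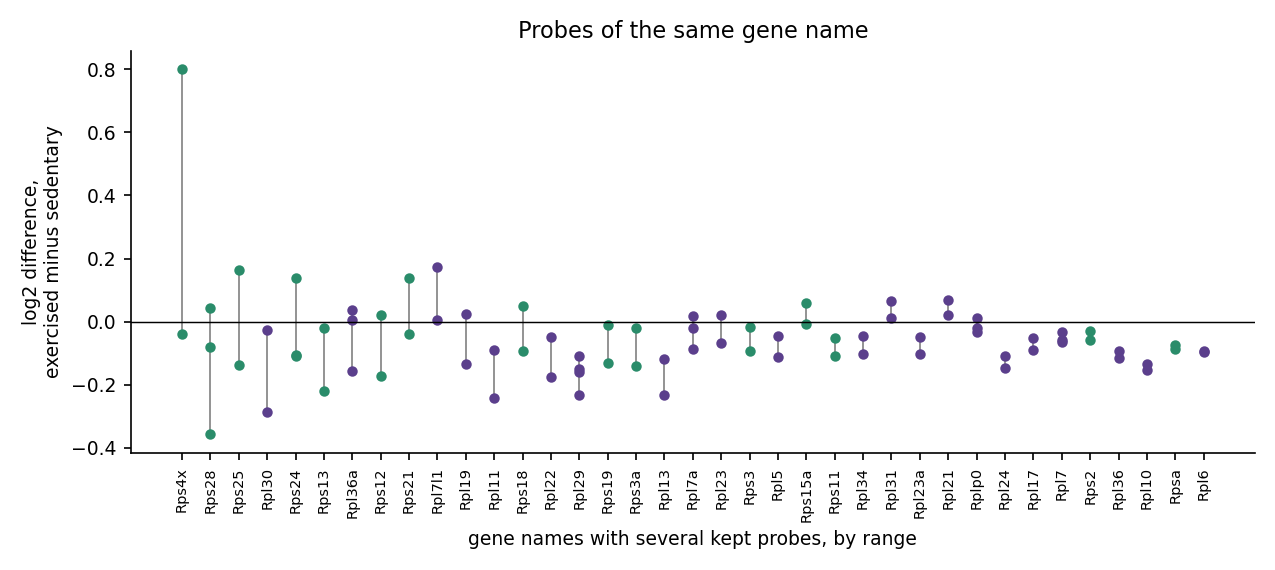
Log2 difference (exercised minus sedentary, vertical axis) of each kept probe for the ribosomal protein names with several probes (1 of the 38 is not drawn), ordered from the widest to the narrowest range (Rpl in purple, Rps in green). The widest range is that of Rps4x at 0.84, and 19 of the 38 names have a range under 0.1.

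Several members are paralogues of a core protein, and some of them can take its place in the ribosome. Rpl3l, a paralogue found in skeletal muscle and heart, replaces Rpl3, a protein of the large subunit near the site of peptide bond formation. Rpl3 had the highest difference among core proteins measured by RefSeq probes, with a lowest, median and highest level of 3.31, 3.43 and 3.55 in exercised mice, and 3.07, 3.23 and 3.54 in sedentary mice. All but 1 of the sedentary mice lay below the lowest exercised mouse. The fold was 1.15 (1.01 to 1.3), with an unadjusted p of 0.0342 and an adjusted p of 0.262 in limma. Rpl3l had 6.83, 7.0 and 7.21 in exercised mice, and 6.96, 7.03 and 7.24 in sedentary mice. Its groups overlapped widely, and the fold was 0.953 (0.846 to 1.07, limma adjusted p = 0.745).

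Within each array the Rpl3l signal was set against the Rpl3 signal, which removes the array's scaling. The value itself mixes the efficiency of both probes and does not give the share of either transcript. In exercised mice log2 Rpl3l minus log2 Rpl3 was 3.79 in s1m1, 3.75 in s1m5, 3.51 in s2m1, 3.54 in s2m3, 3.37 in s2m4 and 3.32 in s2m5. In sedentary mice it was 3.45 in s1m1, 3.89 in s1m5, 3.77 in s1m6, 3.90 in s2m2, 4.00 in s2m4 and 3.89 in s2m5. Sedentary s1m1 and s1m6 lay within the exercised range, and the other 4 sedentary mice lay above it. The means were 3.55 ± 0.19 in exercised and 3.82 ± 0.19 in sedentary mice (SD, n = 6 each), a difference of -0.27 or a ratio of 0.831. The two-sided exact permutation test over all assignments of 6 of the 12 mice gave p = 0.0325, where 0.00216 is the smallest it can give.

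The paralogue difference did not hold under every treatment of the data. Permuting within slides gave -0.26 with an exact p of 0.0625. Within slides the difference was -0.53 on slide 1, -0.41 on slide 2 and 0.05 on slide 3. Leaving out single mice gave values from -0.34 to -0.22 with exact permutation p from 0.0108 to 0.0801, and p was above 0.05 in 9 of 12 cases. Those 9 were exercised s2m1, s2m3, s2m4 and s2m5 and sedentary s1m5, s1m6, s2m2, s2m4 and s2m5. With another background correction, normexp, it was -0.08 (exact permutation p = 0.719). That correction was unequal between arrays, as given above. Summed tendon marker levels of the same mice are given above, and whether they bear on this ratio was not tested.

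**Figure D4:**
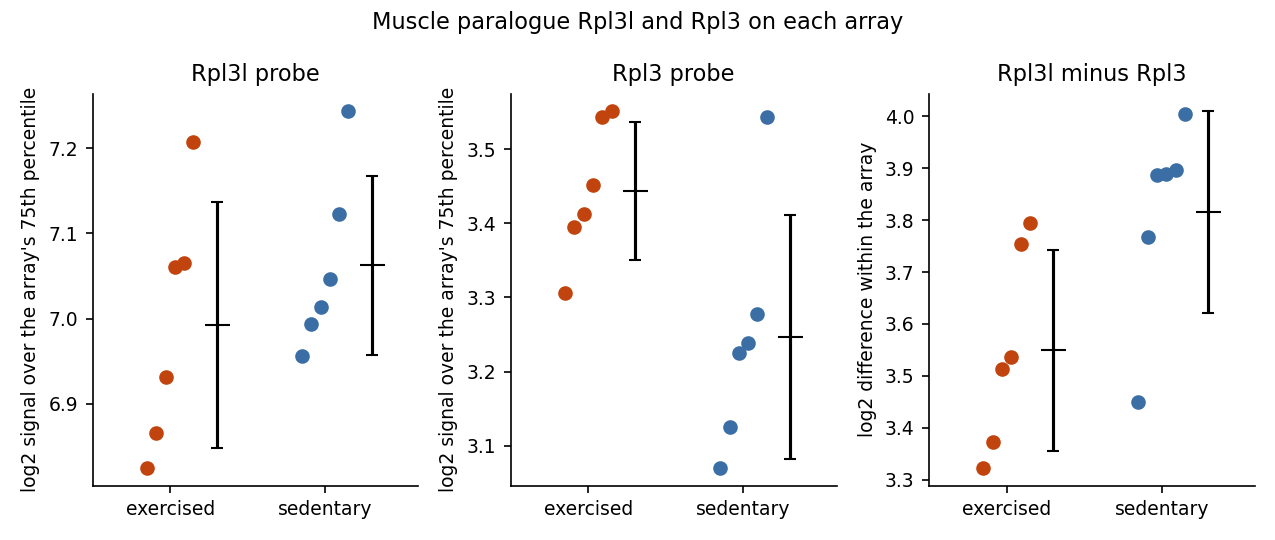
Level of the Rpl3l probe, level of the Rpl3 probe (both log2 over the array's 75th percentile) and their difference within each array, for 6 exercised and 6 sedentary mice, with bars for mean and SD. The difference averages 3.55 in exercised and 3.82 in sedentary mice, and 2 sedentary mice, at 3.45 and 3.77, lie within the exercised range.

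The other paralogue pairs gave no call on either side. Rpl22l1 differed by 0.00, and Rpl22 by -0.18 in its brighter probe and by -0.05 in its dimmer one. Rpl22l1 ran from 4.90 to 5.19 in exercised mice and from 4.56 to 5.69 in sedentary mice. Rps27l, a p53 target, differed by -0.05 and Rps27 by 0.05. Rpl36al differed by 0.00, the brightest probe of Rpl36a by -0.16 and its other probes by 0.04 and 0.01. Rpl7l1 differed by 0.17 in its probe A_51_P110147 and by 0.01 in its other probe, and Rpl7 by -0.03 (limma adjusted p = 0.356 and 0.873). Rpl39l, a paralogue known mainly from mouse testis, was dim, between -2.00 and -1.64 in exercised and between -2.32 and -1.52 in sedentary mice. It differed by 0.26 (0.993-fold to 1.44-fold, limma adjusted p = 0.342), while Rpl39 differed by -0.08. Probes of Rpl39l, Rpl3 and Rpl7l1 thus had the highest differences after the Rps4x probe A_52_P780667, none of them past the test.

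The starts of the genes were searched for pyrimidine tracts such as that of the TOP motif. RefSeq promoter windows (GRCm38.p6) had an entry for 63 of 83 ribosomal protein symbols, and the 30 bases before and 30 after each annotated start were searched. A symbol was counted once if any of its windows matched. A C followed by at least 5 pyrimidines on the sense strand was found in 46 of 63 symbols (73.0%), against 43.8% of 27025 symbols. CTTTC on either strand, which can lie within such a tract, was found in 46.0% against 16.9%. CGGAAG on either strand, the core of sites for ETS factors such as GABP, was found in 31.7% against 7.62%, and TATAAA on either strand in 6.35% against 3.45%. The other motifs searched were CTCTTT (19.0% against 5.32%) and CCTTT (27.0% against 16.9%), both on either strand, and they too can lie within a tract. Rps6, Rps27, Rpl13a and Rpl22l1 are printed as examples with the longest such tract in capitals, and Rpl3l at its upstream start as a member without one. The windows lie at chr4:86857338-86857397 (minus strand), chr3:90213619-90213678 (minus), chr7:45128716-45128775 (minus), chr3:28805478-28805537 (plus) and chr17:24727796-24727855 (plus) in that order:
Rps6: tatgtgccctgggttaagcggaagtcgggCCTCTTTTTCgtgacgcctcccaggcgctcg
Rps27: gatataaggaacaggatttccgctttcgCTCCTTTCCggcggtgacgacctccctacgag
Rpl13a: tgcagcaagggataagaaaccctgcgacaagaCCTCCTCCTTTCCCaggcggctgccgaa
Rpl22l1: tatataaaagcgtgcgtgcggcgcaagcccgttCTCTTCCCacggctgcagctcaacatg
Rpl3l: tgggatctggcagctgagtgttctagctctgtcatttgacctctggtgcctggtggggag

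These matches describe letters in a window and are not evidence of a TOP message or of binding. The 4 members printed with a tract differed by -0.00, 0.05, 0.04 and 0.00, and Rpl3l by -0.07.

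The genes that act with ribosomal proteins were counted from lists of translation genes, with 1 probe per gene in the same fit, against the 3.32% called over all probes. Of 34 initiation factors 0 were called, of 13 elongation and release factors 0, of 19 genes of RNA polymerase I and III and their regulators 0, and of 81 ribosome biogenesis genes 0. Of 76 mitochondrial ribosomal proteins 0 were called as well, and of 5 fused or associated proteins 0. At an unadjusted p below 0.05 in limma these lists had 0, 2, 5, 7, 4 and 0 genes in that order, against 15.7% of all probes. Of 25 genes of mTORC1 and TOP control 1 rose (4%) and 0 fell. That gene was Ddit4 (REDD1), an inhibitor of mTORC1 signalling. Ddit4 had a lowest, median and highest level of 4.83, 6.33 and 7.72 in exercised mice, and 2.69, 3.25 and 3.86 in sedentary mice. All exercised mice were above all sedentary ones, and the fold was 8.68 (4.88 to 15.4, limma adjusted p = 0.000780).

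Other parts of the mTORC1 pathway did not pass. Mtor, the kinase itself, differed by 0.13, its substrate Eif4ebp1 by 0.18, the S6 kinase gene Rps6kb1 by -0.07 and Larp1, which binds TOP messages, by -0.07. Sesn1, another inhibitor of mTORC1, differed by 0.55 with an adjusted p of 0.0949 in limma. Sesn2, Sesn3 and Ddit4l differed by -0.16, 0.09 and -0.09. At an unadjusted p below 0.05 in limma the list had 2 genes higher, Ddit4 and Sesn1. It had 3 lower, Rps6kb2 (-0.28), Mlst8 (-0.23) and Akt1s1 (-0.21). Fau, which is made as a fusion of a ubiquitin-like protein and a small subunit protein, differed by -0.04.

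Genes that supply ribosomal RNA and assemble the subunits also gave no call. Myc, a transcription factor of ribosome genes, had a lowest, median and highest level of -1.80, -1.31 and -0.72 in exercised mice, and -1.11, -0.87 and -0.51 in sedentary mice. Its groups overlapped, with a difference of -0.44 (unadjusted p = 0.0367, adjusted p = 0.273 in limma). Ubtf and Rrn3, factors of RNA polymerase I, differed by -0.07 and 0.06. Of the 19 genes of the polymerase list, 4 were lower at an unadjusted p below 0.05 in limma, against 8.89% of all probes. These were Myc, Mycn (-0.91), Polr3a (-0.29) and Polr3b (-0.16). Max was the 1 higher (0.28, limma adjusted p = 0.0740), against 6.79% of all probes. The list's median was -0.09. The nucleolar proteins Ncl, Npm1 and Fbl differed by -0.07, 0.07 and 0.05. Of the 81 biogenesis genes, 7 had an unadjusted p below 0.05, all lower, against 8.89% of all probes lower at that threshold, and their list had a median of -0.03.

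The elongation factors that work on the ribosome included a pair with unlike values. Eef1a2, the form of the tRNA carrier that prevails in adult muscle, was between 5.30 and 5.70 in exercised mice with a median of 5.44, and between 5.61 and 5.91 in sedentary mice with a median of 5.72. It differed by -0.29 (unadjusted p = 0.00326, adjusted p = 0.0732 in limma). Eef1a1, the form of most other tissues, was between 5.23 and 5.43 with a median of 5.40 in exercised mice, and between 4.93 and 5.32 with a median of 5.17 in sedentary mice. It differed by 0.22 (unadjusted p = 0.0104, adjusted p = 0.142 in limma). Neither was called, and no test was made of the pair. Eef2, the translocation factor, differed by -0.04.

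**Figure D5:**
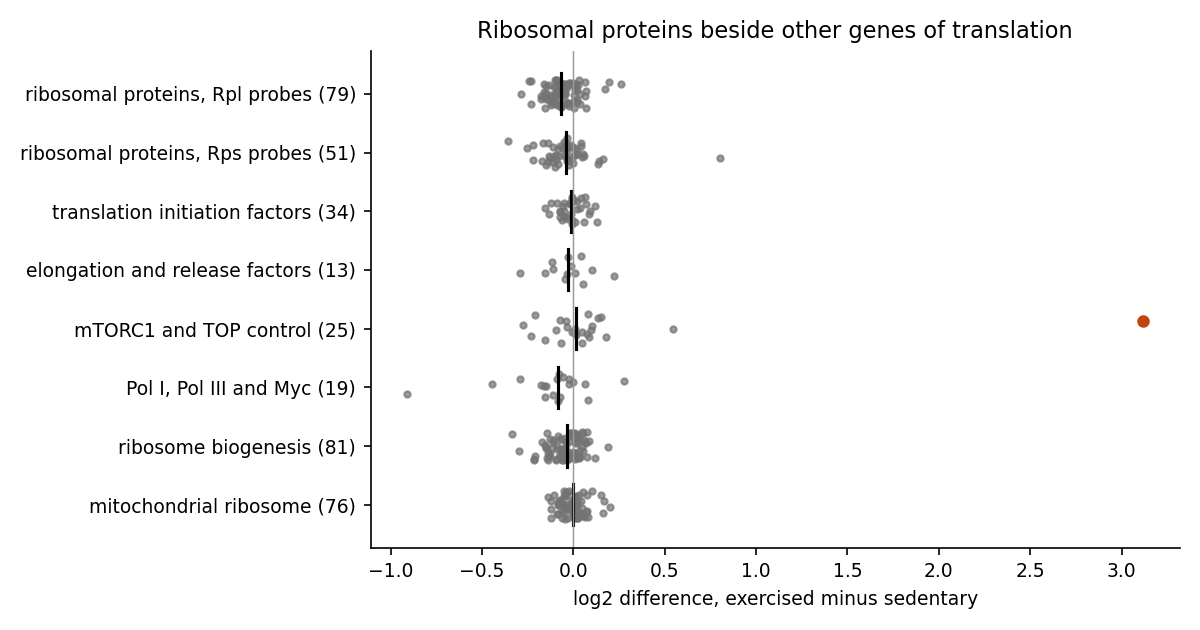
Log2 difference (exercised minus sedentary, horizontal axis) of the ribosomal protein probes and of the genes of 6 other translation lists (number of probes or genes in brackets), with a black line at each median and called genes as larger orange points. The only called gene is Ddit4, an 8.68-fold rise, while all medians lie between -0.09 and 0.01.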

How the data were processed

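The deposited scanner files give spot intensity. Per the file headers the authors extracted all 12 arrays with Agilent Feature Extraction 10.5.1.1 (annotation mm9), whereas the submitters' processing notes name version 9.1. The processed intensity deposited there is background-subtracted within the array and not scaled between arrays. Marks for background, saturation and outliers, and the probe annotation, are other columns of the deposited files.

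Control spots and outlier-marked spots were left out, spots of 1 probe were averaged, and log2 signals were set relative to the array's own 75th percentile. Exercised was compared with sedentary in limma 3.58.1 under R 4.3.3 without a block, over all 22916 kept probes, with Benjamini-Hochberg adjustment. The pipeline was tested on simulated data. The number of mice limits the precision. Members, lists and named genes were chosen with earlier results of these data known. Named were called members (there were none), 34 genes by role, the 5 highest and 5 lowest members above background on all arrays, and for the pathway lists their called genes and 16 genes by role, of which 1 is not reported here. Other names were chosen after their values were seen. These are Rpl29, Rps26, Rpl21, Rps29, Rpl31, Sesn1, Sesn2, Sesn3, Ddit4l, Mlst8, Akt1s1, Rps6kb2, Max, Mycn, Polr3a, Polr3b and further probes of named genes. Same-numbered mice (4 numbers occur in both groups) deviated from their group means with correlations of 0.14, -0.18, 0.09 and 0.24, so the numbers were not used as pairs. Alternatives covered scaling, background, values deposited as a series-wide table, probe filters, variance models, slide, title set, shared numbers and single arrays left out.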

Additional observations from a re-analysis of the deposited data

Results flagged for a closer look

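Single mice stood apart from the other 5 of their group in 4 of 82 groups of values checked with Dixon's test at the 95% level, and chance alone marks about 1 group in 20. The exercised mouse s2m4 had a level of 8.57 for Rplp1, where the other exercised mice had 8.97 to 9.19. The same mouse had 6.67 for the RefSeq probe of Rps4x, where the others had 7.12 to 7.28. The sedentary mouse s1m5 had 7.44 for the brighter Rpl11 probe, where the other sedentary mice had 7.62 to 7.71. The sedentary mouse s2m2 had an array score over the members of 0.204, where the other sedentary mice had -0.06 to 0.04.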

How the results depend on the processing

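The count of called members was 0 under all 32 alternatives, as was that of each subunit and of the title-set interaction wherever they were run. The members' median kept within 1 SD of the array scores (0.09) except under normexp, where it was 0.22 with 116 of 132 members above 0. That band is wider than the size of the median itself, so a change of its sign, as between slides, was counted as kept. Normexp left the median probe of 4 arrays at 745 to 2289 units of intensity, against 74.3 to 84.7 on the other 8, and plain subtraction of the local background, added after seeing the data, gave -0.02. Leaving out 1 mouse at a time gave medians from -0.08 to -0.02. No named member was called under any alternative (1203 values).

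The Rpl3l to Rpl3 difference of -0.27 lost its call (exact permutation tests) under normexp (-0.078, p = 0.719), plain subtraction (-0.24, p = 0.115), slide block (-0.26, p = 0.0625) and title set block (-0.26, p = 0.0571). As a replicate block, the 4 shared animal numbers gave -0.25 (exact permutation p = 0.375). Only mice of the same number can be exchanged there, which is too few for any p below 0.05, so that p decides nothing. It was -0.53 within slide 1 and 0.048 within slide 3, and -0.34 to -0.22 without single mice. The cause was not tested.

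Called pathway genes numbered 1 in the main setting, 0 under normexp and within each slide, and 2 under quantile scaling, plain subtraction, array weights and title set block. They numbered 4 with trended robust variances, 5 at an adjusted p below 0.10, and 1 to 2 without single mice (2 without exercised s1m1 or s1m5 or sedentary s1m6). The replicate block moved the members' median to -0.00 and called 0 members.

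Intervals assume that mice vary alike in both groups. Dim probes, 14 of them below the 75th percentile, limit what can be seen. Rpl31 and Rpl39l had no other kept probes. Rps12, Rps24 and Rps25 each had a dim probe not above background on every array, beside a bright RefSeq probe. Array signal compares RNA amounts relative to other transcripts, so a change common to all RNA would not appear. Translation, ribosomal RNA and protein were not measured.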
